A study of Mus musculus with 82 samples.

Results

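The transcription factors Foxo1 and Foxo3 and 8 genes that FOXO factors are known to induce in growth-factor-deprived cells (Irs1, Irs2, Ccng2, Bcl6, Txnip, Pik3ip1, Sesn1 and Klhl24) were followed in mouse aortic vascular smooth muscle cells (aVSMC). They were taken by gene symbol and are 10 of the 55401 genes in the deposited count table. Each symbol matched 1 gene, and all 10 passed the filter on low counts after 24 h and after 48 h. The cells were primary cultures from aortas of C57BL/6 mice. They were grown with serum, insulin and EGF and then left for 24 h in DMEM without any supplement, so that every group, the control included, started from this deprived state. EGF (10 µg/L), a growth factor, angiotensin II (AngII, 10 nM) and U46619 (1 µM), a stable agonist of the thromboxane receptor, were then added in the same medium, and the control received the medium alone. The 24 h incubation had 7 groups, a control, the 3 substances alone, EGF combined with AngII or with U46619, and the triple incubation EGF+AngII+U46619, and every group had n = 6 with the same 6 mice. The 48 h incubation had 6 groups in 2 batches, with 5 cultures of each group in a batch. Control and EGF were in both batches (n = 10), U46619 and EGF+U46619 only in the batch called EGF/U46619, and AngII and EGF+AngII only in the batch called EGF/AngII.

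FOXO factors act when growth factor signals are low. Insulin receptor substrates and growth factor receptors feed phosphatidylinositol 3-kinase (PI3K) and the kinase AKT, AKT phosphorylates FOXO proteins, and the phosphorylated proteins are kept out of the nucleus. When the pathway is quiet, nuclear FOXO raises genes that slow the cell cycle, limit glucose uptake and mTORC1 activity, and restore the sensitivity of the pathway itself, a programme known from quiescent cells. RNA levels, which are what was measured here, do not show where FOXO protein was or whether it was phosphorylated.

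U46619 lowered most of this group. Relative to control after 24 h, 8 of the 10 genes fell with U46619, 8 with EGF+U46619 and 9 with EGF+AngII+U46619, and 0 rose in any of these 3 comparisons, which share the control cultures. A gene was called changed when the false discovery rate (FDR, Benjamini-Hochberg adjusted p) was under 0.05 in both edgeR and DESeq2 and its mean reached 5 FPM, counts per 1000000 of the normalised library, in 1 of the groups compared. Over all 14653 genes tested after 24 h, 13.8% were called lower with U46619, 15.7% with EGF+U46619 and 15.6% with EGF+AngII+U46619. The median log2-fold change of the 10 genes was −0.82, −0.69 and −0.999 in these comparisons, and that of all genes tested was −0.06, −0.05 and −0.04. The largest falls were those of Pik3ip1, Txnip and Sesn1, while Irs2 was called in none of these comparisons.

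The short sequence that FOXO proteins bind was looked for in the RefSeq promoters of the group (GRCm38.p6, 250 bases before to 50 after the start of transcription), because most of these genes moved together. Of the 10 genes 9 had an entry, with 11 windows in all, and Klhl24 had none. Among all 32851 windows, 3.65% held the forkhead core GTAAACA and 6.28% held CAAAACA, the letters of the insulin response element, on either strand. No match of either motif overlapped a match of the other. Txnip carried the forkhead core 121 bases before its start and Irs1 held the insulin response letters at 111 and 32 bases before its start. Irs2 had them 37 bases and Ccng2 16 bases before the start, and 1 of the 2 windows of Sesn1 had the forkhead core 23 bases after it. Neither motif occurred in the windows of Foxo1, Foxo3, Bcl6 and Pik3ip1, which says only that these letters are not there. A match is a string of letters, not a measured binding site. The stretches before the start of Txnip, Irs1 and Irs2 are shown 5′ to 3′ on the strand of the gene, with the matched letters in capitals. The matches in Irs1 and Irs2 are on the opposite strand and therefore read TGTTTTG.
Txnip, chr3:96557810-96557869, plus strand: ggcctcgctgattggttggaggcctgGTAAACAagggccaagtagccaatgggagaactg
Irs1, chr1:82291517-82291576, minus strand: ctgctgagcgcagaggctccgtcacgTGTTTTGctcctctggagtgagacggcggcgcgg
Irs1, chr1:82291440-82291499, minus strand: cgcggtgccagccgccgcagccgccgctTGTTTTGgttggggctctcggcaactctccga
Irs2, chr8:11008933-11008992, minus strand: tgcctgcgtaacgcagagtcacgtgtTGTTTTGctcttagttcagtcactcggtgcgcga
Of these 3 genes, Txnip fell most after 24 h, Irs1 fell less and Irs2 was not called. Ccng2, which also has a match before its start but whose stretch is not shown, was at −0.46 with U46619 (log2-fold change, FDR = 0.042).

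The libraries held 16483529 to 20818809 counts after 24 h and 19936925 to 33916114 after 48 h, and the lowest count of a member in any library was 11. The smooth muscle label was checked with 8 markers. Tagln and Cnn1 were listed at 0 in all libraries, as were the 7075 genes on chromosomes 9, X and Y or in the mitochondrial genome, and the others were present. Since whole chromosomes are at 0, a 0 in the deposited counts need not mean that the RNA was absent from the cells. Libraries also held RNA of fibroblast, endothelial and leukocyte markers, with endothelial sums of 1.57 to 1290 FPM over the 24 h libraries. A single control library after 48 h, set 4 of the EGF/AngII batch, correlated best with the EGF library of set 2 (r = 0.997) and less with its own set (highest r = 0.941), so results that rest on it are given with and without it. After 24 h the EGF+AngII+U46619 library of mouse 3 stood apart over the genes tested. Its highest r with any library was 0.949, and the next lowest such value of a 24 h library was 0.984. Without it Bcl6 was no longer called in the triple incubation, and some calls in other comparisons were gained. The deposited labels give 5 mouse numbers to the 10 culture sets of 48 h, whereas a different mouse per replicate is described for the study. By these labels sets 1 and 4 of the EGF/U46619 batch share a mouse number, as do sets 1, 2 and 5 of the EGF/AngII batch. The culture sets of a batch may therefore not all be separate mice.

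In control cultures after 24 h the members differed widely in level. Divided by the length of the exons, Txnip, an arrestin that restrains glucose uptake and thioredoxin, stood at 249.7 ± 185.2 FPM per kb (SD, n = 6) with cultures from 84.4 to 592. No culture of any other member reached that range. Pik3ip1 followed at 16.9 ± 5.21, Sesn1 at 11.4 ± 6.55, Ccng2 at 9.04 ± 1.79, Foxo3 at 8.71 ± 2.26 and Klhl24 at 7.01 ± 1.61 FPM per kb. Irs2 (4.66 ± 1.25), Bcl6 (4.63 ± 1.42) and Foxo1 (3.82 ± 1.63) lay lower and Irs1 was lowest at 1.72 ± 0.4995 FPM per kb. The ranges of neighbours in this order overlapped except at its ends, where Txnip lay above Pik3ip1 and Irs1 (0.863 to 2.14 FPM per kb) below Foxo1. Mean Foxo3 was above mean Foxo1 in level per kb, and their ranges (6.58 to 12.7 and 2.45 to 6.85 FPM per kb) just overlapped.

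**Figure D1:**
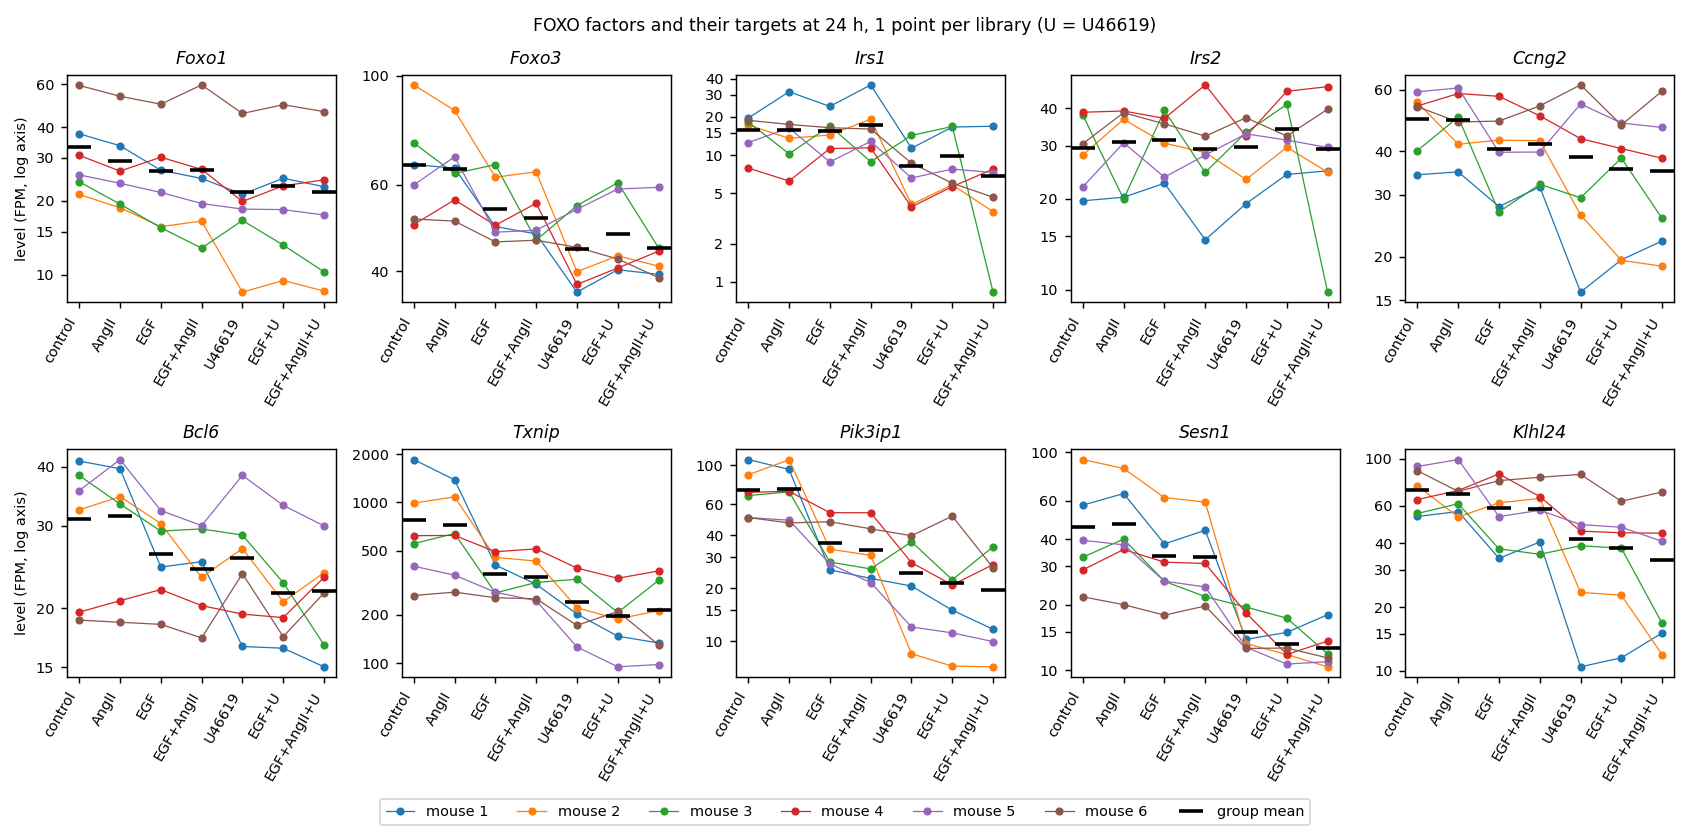
Level in FPM (y axis, log scale) of each of the 10 genes in the 7 groups after 24 h. Each point is 1 culture, coloured lines join the cultures of 1 mouse (6 mice) and black bars are arithmetic group means; Sesn1 in the 3 groups with U46619 (10.4 to 19.5 FPM) lies below every control culture (21.8 to 92.8 FPM), and the Irs1 and Irs2 panels show the low culture of mouse 3 in the triple incubation.

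The 2 factors themselves fell with U46619. Foxo1, on chromosome 3 (52268336 to 52353221, plus strand, GRCm38), had a lowest, median and highest control culture of 21.3, 28.1 and 59.3 FPM, and 8.48, 19.2 and 45.6 FPM with U46619. The groups overlapped, but each mouse's U46619 culture was below its own control. The log2-fold change was −0.68 (SE 0.13, FDR = 0.00019). With EGF+U46619 it was −0.63 (FDR = 0.000259) and with EGF+AngII+U46619 −0.73 (FDR = 3.72e-05). Foxo3, on chromosome 10 (42181841 to 42276755, minus strand), ranged from 49.8 over a median of 62.9 to 95.8 FPM in control and from 36.3 over 42.3 to 54.4 FPM with U46619. All 6 mice were again lower, with a log2-fold change of −0.56 (SE 0.13, FDR = 0.0012), and −0.46 with EGF+U46619 (FDR = 0.00436) and −0.55 with the triple incubation (FDR = 0.000812). The call of Foxo3 with EGF+U46619 was lost without mouse 2, where the value was −0.31.

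Upstream of FOXO, the PI3K pathway is restrained by Pik3ip1, which binds PI3K and lowers its activity, and fed by Irs1 and Irs2, the adaptors of the insulin and IGF1 receptors. Pik3ip1 (chromosome 11, 3330401 to 3342971, plus strand) had control cultures of 50.3, 68.5 and 107 FPM as lowest, median and highest, and U46619 cultures of 8.48, 24.2 and 39.7 FPM. The groups did not overlap. It fell 3.38-fold with U46619 (log2-fold change −1.76, SE 0.34, FDR = 0.000223), 3.93-fold with EGF+U46619 (−1.97, FDR = 4.2e-05) and 4.23-fold with EGF+AngII+U46619 (−2.08, FDR = 1.7e-05), the largest change of the group. With EGF+U46619 the culture of mouse 6 was at 51.3 FPM, as high as its control (50.3 FPM), while those of the other 5 mice were between 7.21 and 22.3 FPM.

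The insulin receptor substrates differed from each other. Irs1 (chromosome 1, 82233101 to 82291416, minus strand) had a median of 17.7 FPM in control, with cultures from 7.89 to 19.6, and of 7.61 FPM with U46619, with cultures from 3.90 to 14.3. All 6 mice were lower and the log2-fold change was −0.9997 (SE 0.34, FDR = 0.0241). That call held only without mouse 3 and was lost when mouse 1, 2, 4, 5 or 6 was left out, with values between −1.20 and −0.80. With EGF+U46619 Irs1 was at −0.75 (FDR = 0.077), which did not pass. With EGF+AngII+U46619 it fell by 1.26 on the log2 scale (FDR = 0.00435), a group that holds 1 culture far below the others, that of mouse 3 with 0.83 FPM from 11 counts. The library of this culture also stood apart over all genes tested. Without that library Irs1 was at −0.99 in the triple incubation (FDR = 0.00663) and was also called lower with EGF+U46619 (−0.77, FDR = 0.0203). Irs2 (chromosome 8, 10984681 to 11008458, minus strand) had medians of 29.2 FPM in control and 32.6 FPM with U46619, with ranges of 19.7 to 38.8 and 19.3 to 37.2 FPM. The log2-fold change was 0.02 (95% CI −0.38 to 0.42, FDR = 0.956) and with EGF+U46619 0.21 (95% CI −0.19 to 0.61, FDR = 0.402).

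Txnip, Sesn1 and Klhl24 stand at the metabolic end of the programme. Txnip (chromosome 3, 96557957 to 96561883, plus strand) is raised by glucose as well as by FOXO, and its control cultures had the widest relative spread of the group. The lowest, median and highest were 264, 588 and 1849 FPM in control and 126, 212 and 391 FPM with U46619. The groups overlapped because the control of mouse 6 was as low as treated cultures of other mice, yet each mouse was lower than its own control. Txnip fell 3.07-fold with U46619 (log2-fold change −1.62, SE 0.30, FDR = 0.000151), 3.65-fold with EGF+U46619 (−1.87, FDR = 1.9e-05) and 3.55-fold with EGF+AngII+U46619 (−1.83, FDR = 1.78e-05). The gene lies wholly within Gm15441, a gene on the other strand. The counting options given in the study's methods name no strand setting. How reads over exons of both genes were assigned was not tested. Gm15441 itself was counted at 0.634 ± 0.436 FPM (SD, n = 6) in control and 0.296 ± 0.161 FPM (SD, n = 6) with U46619. Foxo1, Irs1, Irs2, Pik3ip1 and Bcl6 each overlap a gene on the other strand over part of their length, and the partners of Foxo1, Irs1, Pik3ip1 and Bcl6 had control means of at most 0.243 FPM after 24 h. No level was obtained for 9530052E02Rik, the partner of Irs2. Sesn1 and Foxo1 each also overlap a gene on their own strand (9930024M15Rik and Gm38034).

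Sesn1 (chromosome 10, 41809935 to 41908424, plus strand) encodes a sestrin, an inhibitor of mTORC1 that p53 also induces. It had 21.8, 36.3 and 92.8 FPM in the lowest, median and highest control and 12.6, 13.6 and 19.5 FPM with U46619. The groups did not overlap, and the spread between mice was far narrower with U46619 (SD 3.06 FPM) than in control (SD 26.1 FPM). It fell 2.70-fold with U46619 (log2-fold change −1.43, SE 0.23, FDR = 4.15e-05), 3.09-fold with EGF+U46619 (−1.63, FDR = 3.96e-06) and 3.23-fold with EGF+AngII+U46619 (−1.69, FDR = 1.64e-06). Sesn1 was also the only member called lower with U46619 than with EGF (−1.01, SE 0.23, FDR = 0.00315, against 5.08% of all genes called lower) and, with Txnip, 1 of the 2 called lower with EGF+U46619 than with EGF (−1.21, FDR = 0.000699, and −0.87 for Txnip, FDR = 0.0371, against 6.09% of all genes). The Txnip call in that comparison was lost without mouse 2, 4 or 5, with values between −1.04 and −0.74 over the 6 fits that left out a mouse. All 10 members lay below 0 in U46619 against EGF (52.9% of all genes did) and 9 in EGF+U46619 against EGF (50.3%). Their median log2-fold changes were −0.47 and −0.49, against −0.03 and −0.004 for all genes. By unadjusted p under 0.05 in both tools it was 6 of 10 members in each comparison, and 3952 and 4253 of all genes. Klhl24 just missed the limit in EGF+U46619 against EGF (−0.71, FDR = 0.0504).

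Klhl24, on chromosome 16 (20097542 to 20129221, plus strand), is a substrate adaptor of a CUL3 ubiquitin ligase. Its lowest, median and highest cultures had 53.5, 69.6 and 92.2 FPM in control and 10.5, 42.3 and 84.6 FPM with U46619. These ranges overlapped, since mouse 6 hardly moved (88.1 FPM in control and 84.6 FPM with U46619). Klhl24 fell 1.93-fold with U46619 (log2-fold change −0.95, SE 0.26, FDR = 0.00457), 2.08-fold with EGF+U46619 (−1.05, FDR = 0.00144) and 2.49-fold with the triple incubation (−1.31, FDR = 0.000141).

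The repressors of proliferation had small estimates. Ccng2 (chromosome 5, 93267257 to 93276231, plus strand), an unconventional cyclin that slows the cell cycle, had medians of 53.7 FPM in control and 36.5 FPM with U46619, with overlapping ranges of 34.3 to 59.1 and 15.8 to 61.9 FPM. It fell 1.37-fold with U46619 (log2-fold change −0.46, SE 0.18, FDR = 0.042), 1.44-fold with EGF+U46619 (FDR = 0.0165) and 1.48-fold with EGF+AngII+U46619 (FDR = 0.00964). With U46619 the call was lost without mouse 1, 2, 3 or 4, with values between −0.56 and −0.32 over the fits that left out 1 mouse, with EGF+U46619 without mouse 1 or 2 (−0.63 to −0.34) and with the triple incubation without mouse 2 (−0.38). Bcl6 (chromosome 16, 23965052 to 23988852, minus strand), a transcriptional repressor, had medians of 34 FPM in control and 25.3 FPM with U46619, a difference that did not pass (log2-fold change −0.27, 95% CI −0.60 to 0.06, FDR = 0.198). It was called lower with EGF+U46619 (−0.52, SE 0.16, FDR = 0.0111) and with the triple incubation (−0.47, FDR = 0.0195). The former call was lost without mouse 1 or 2 (−0.60 to −0.34 over the fits), and the latter without mouse 1, 2 or 3 (−0.61 to −0.27) and without the 1 library of mouse 3 in the triple incubation (−0.37, FDR = 0.059).

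**Figure D2:**
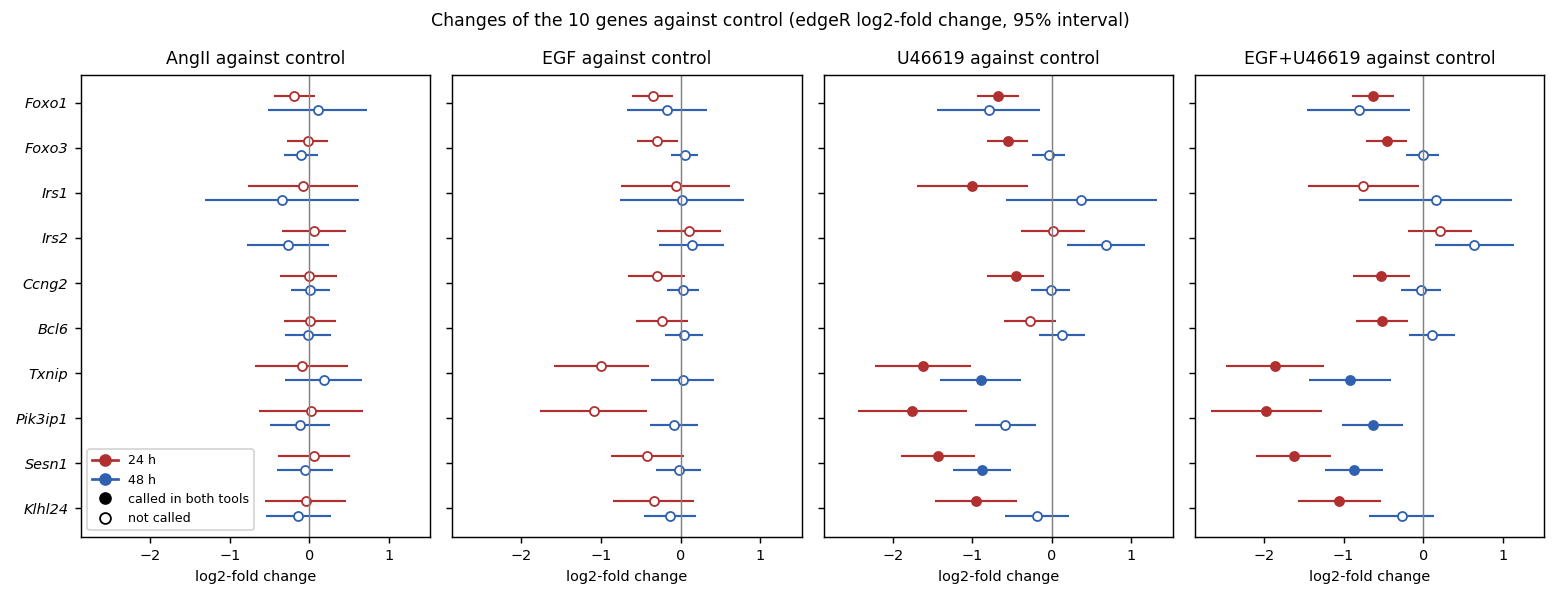
Log2-fold change from edgeR (x axis, point, with its 95% interval as a line) of each of the 10 genes against control with AngII, EGF, U46619 and EGF+U46619, after 24 h (red) and 48 h (blue). Filled points were called in both tools and open points were not; all filled points lie in the 2 panels with U46619 and left of 0, from −0.46 (Ccng2 with U46619, 24 h) to −1.97 (Pik3ip1 with EGF+U46619, 24 h).

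With EGF alone no member passed. Of the 10 members 0 were called after 24 h with EGF, where 4 of 14653 genes were called in either direction (0.0273%). By unadjusted p under 0.05 in both tools it was 4 of 10 members and 2546 of all genes, edgeR alone called 5 genes and DESeq2 alone 300, Txnip among the latter (FDR = 0.0454). The 4 members were Txnip at −0.997 (95% CI −1.59 to −0.40, edgeR FDR = 0.0979), Pik3ip1 at −1.09 (95% CI −1.76 to −0.42, FDR = 0.101), Foxo1 at −0.35 (FDR = 0.146) and Foxo3 at −0.29 (FDR = 0.217), and each had a lower EGF culture than control culture in 6 of 6 mice. Pik3ip1 had a median of 30.7 FPM with EGF and 68.5 FPM in control. The study, which also required an FDR under 0.05 in both tools, reports far more genes changed with EGF alone after 24 h than were called here. The reason for this difference was not tested. With EGF+AngII, where 1.58% of all genes were called lower, 2 members were called, Txnip (−1.07, SE 0.29, FDR = 0.0455) and Pik3ip1 (−1.24, SE 0.33, FDR = 0.0429). Both calls were lost without mouse 1, 2, 3 or 5, with Txnip between −1.20 and −0.65 and Pik3ip1 between −1.39 and −1.0007 over the 6 fits. EGF+AngII was not set against EGF directly, so these calls do not show that the 2 groups differ. The pooled AngII comparison called 0 members, but it averages 3 backgrounds and cannot settle this.

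No change with AngII was detected. With AngII alone 0 members and 0 of all genes (0%) were called in edgeR and DESeq2, and 0 members and 64 genes had p under 0.05 in both tools before adjustment. The estimates of the 10 genes lay between −0.19 for Foxo1 (95% CI −0.45 to 0.07) and 0.06 for Irs2 (95% CI −0.34 to 0.47). Foxo1 was lower with AngII than in control in 6 of 6 mice, with within-mouse log2 differences of −0.30 to −0.11, and its FDR did not pass. The mean difference due to AngII over the 3 backgrounds (medium, EGF and EGF+U46619) also gave 0 calls among members and 0 (0%) among all genes by either tool, with 0 members and 113 genes at an unadjusted p under 0.05.

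Adding EGF to U46619 gave no further change that could be detected. In EGF+U46619 against U46619, 0 members and 0 of all genes (0%) were called, edgeR alone called 0 genes and DESeq2 alone 3, and before adjustment 0 members and 368 genes had p under 0.05 in both. The estimates lay on both sides of 0. They were −0.25 for Txnip (95% CI −0.84 to 0.34), −0.25 for Bcl6 (95% CI −0.58 to 0.08), −0.22 for Pik3ip1 (95% CI −0.89 to 0.45) and −0.19 for Sesn1 (95% CI −0.66 to 0.27), and on the other side 0.24 for Irs1 (95% CI −0.45 to 0.94), 0.20 for Irs2, 0.10 for Foxo3 and 0.05 for Foxo1. Bcl6 was lower than with U46619 alone in 6 of 6 mice and Foxo3 higher in 5 of 6. The interaction of EGF and U46619 was below 0 for 46.0% of all genes tested. It was above 0 for 9 of the 10 members, whose estimates share the same libraries. In these 9 the combined log2-fold change thus lay above the sum of the separate ones. For the 8 of these other than Irs2, whose estimates were falls, the combined fall was thus smaller than that sum. It passed for 0 members and 0 of all genes (0%), with 437 genes under 0.05 in both tools before adjustment and 1 called by DESeq2 alone. Foxo1 (0.40, SE 0.18, p = 0.0337) and Foxo3 (0.39, SE 0.18, p = 0.0385) were the 2 members under that unadjusted limit in edgeR, and their FDR was 1.

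The 6 mice differed in how far the group fell. With U46619 the within-mouse log2 difference of Txnip was −3.19 in mouse 1, −2.16 in mouse 2, −0.73 in mouse 3, −0.67 in mouse 4, −1.67 in mouse 5 and −0.61 in mouse 6. Sesn1 showed −2.01, −2.76, −0.75, −0.64, −1.59 and −0.76 in the same order, and Pik3ip1 −2.36, −3.30, −0.86, −1.31, −2.02 and −0.34. Mice 1, 2 and 5 thus had the 3 largest falls for each of these genes. The levels differed already in control, where Txnip was highest in mouse 1 (1849 FPM) and lowest in mouse 6 (264 FPM), and Sesn1 was highest in mouse 2 (92.8 FPM) and lowest in mouse 6 (21.8 FPM). With U46619 the same cultures lay closer together, at 126 to 391 FPM for Txnip and 12.6 to 19.5 FPM for Sesn1. Without the mouse as a term in the fit, 4 of the 10 genes were called with U46619 and 4 with EGF+U46619, in place of 8 and 8. The share of all genes called in that fit was not counted, so this loss cannot be read as particular to these genes.

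**Figure D3:**
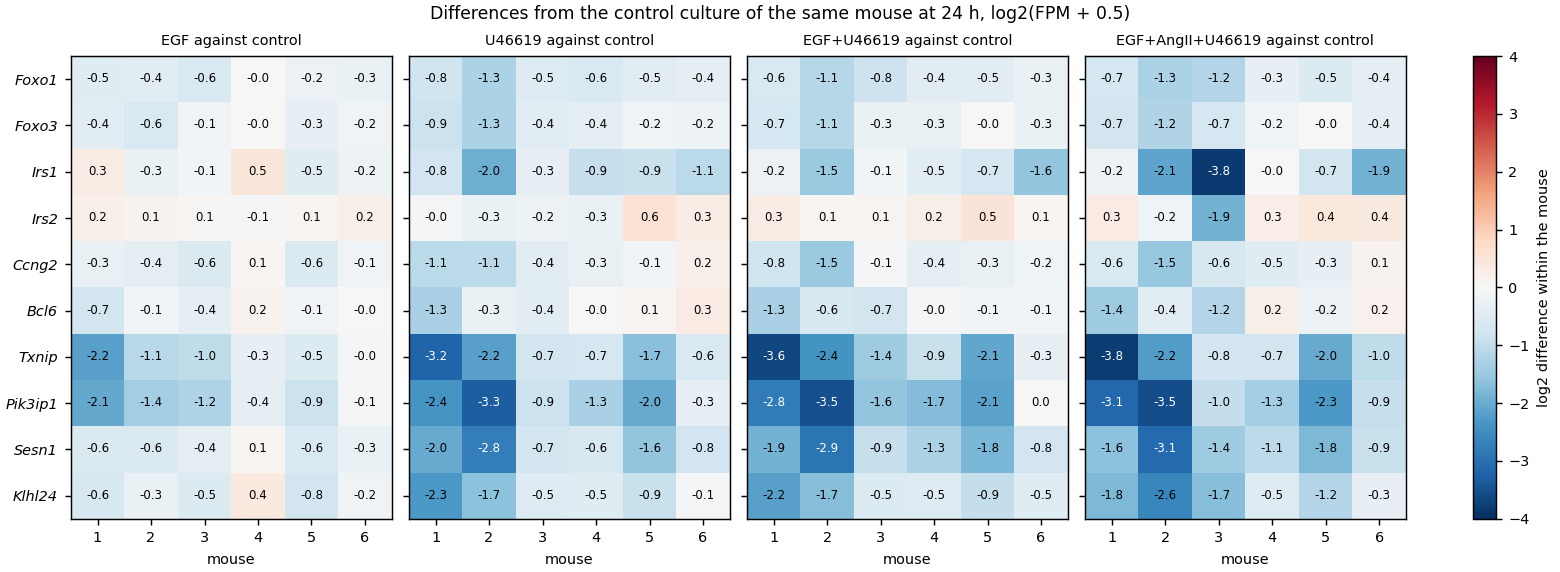
Heat map of the log2 difference, from log2(FPM + 0.5), between each treated culture and the control culture of the same mouse after 24 h, with genes as rows, the 6 mice as columns and a panel for each of 4 treatments; blue is lower than control, red is higher, and the number in a cell is its value. Txnip, Pik3ip1 and Sesn1 were lower with U46619 in 6 of 6 mice, with the largest falls in mice 1, 2 and 5.

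After 48 h fewer of these genes were called in the fit over both batches, and all that were fell. That fit had the mouse number as a term and no term for the batch. Of the 10 members 2 were called lower with U46619, Sesn1 and Txnip, and 3 with EGF+U46619, these 2 and Pik3ip1. Of 15796 genes tested 1.42% and 2.77% were called lower in these comparisons. The median log2-fold change of the 10 was −0.11 and −0.15, against −0.03 in both for all genes. Both points depend on the fit. Within the EGF/U46619 batch alone, with the culture set as block, 5 members were called in each comparison, 4 lower and 1 (Irs2) higher. In that fit 9.82% and 12% of all genes were called lower. The difference between the times was not tested, since cultures, mice and batches differed.

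Sesn1 had the lowest FDR of the group. Its 5 control cultures of the EGF/U46619 batch had 49.6, 37.9, 41.5, 26.8 and 25.3 FPM, those with U46619 21.5, 18.5, 19.1, 19.4 and 17.6 FPM, and those with EGF+U46619 21.4, 20.3, 16.7, 21.1 and 16.8 FPM, in the order of sets 1 to 5. No treated culture reached a control of that batch. Against all 10 controls the log2-fold change was −0.88 with U46619 (SE 0.18, FDR = 0.00451) and −0.87 with EGF+U46619 (SE 0.18, FDR = 0.00257), and within the EGF/U46619 batch alone −0.88 (FDR = 0.000107) and −0.87 (FDR = 6.43e-05). Both calls held in each of the 10 fits that left out a culture set, and without the control library of set 4 of the EGF/AngII batch (−0.90 in both). Sesn1 was also lower than with EGF, by −0.86 with U46619 (FDR = 0.00634) and −0.85 with EGF+U46619 (FDR = 0.00474).

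Txnip had 421, 278, 484, 234 and 215 FPM in the controls of that batch, 207, 186.4, 213, 166.4 and 122 FPM with U46619, and 200, 202, 210, 167.9 and 96.9 FPM with EGF+U46619. Within the batch the treated cultures lay below all controls. Against all controls the log2-fold change was −0.89 with U46619 (SE 0.25, FDR = 0.0339) and −0.92 with EGF+U46619 (SE 0.25, FDR = 0.0203). The former call was lost without set 1, 2, 3 or 4 of the EGF/U46619 batch or set 5 of the EGF/AngII batch (−0.96 to −0.76), and the latter without set 3 or 4 of the EGF/U46619 batch (−1.03 to −0.74). Within the batch it was −0.82 (FDR = 0.00015) and −0.87 (FDR = 5.35e-05), and without the control library of set 4 of the EGF/AngII batch −0.89 (FDR = 0.0414) and −0.92 (FDR = 0.0257).
Txnip was also called lower than with EGF, with U46619 (−0.92, FDR = 0.0357) and with EGF+U46619 (−0.95, FDR = 0.024). Within the EGF/U46619 batch these values were smaller, −0.47 (FDR = 0.0158) and −0.51 (FDR = 0.00694), and over both batches with the culture set as block −0.63 and −0.68. Mean Txnip with EGF was 259.5 ± 102.2 FPM (SD, n = 5) in that batch and 367.6 ± 139.9 FPM (SD, n = 5) in the EGF/AngII batch. The former was lost without any of 7 culture sets (1 to 4 of the EGF/U46619 batch and 2, 5 and 6 of the EGF/AngII batch, −1.02 to −0.64) and the latter without set 3 or 4 of the EGF/U46619 batch (−1.08 to −0.69). In these 2 comparisons Txnip and Sesn1 were the 2 members called, and 1.2% and 2.02% of all genes were called lower. With the culture set as block Pik3ip1 was called as well (−0.47, FDR = 0.0248, and −0.51, FDR = 0.0127, lower in 5 of 5 sets), where 4.2% and 5.64% of all genes were called lower. Within the EGF/U46619 batch, where 5.5% and 6.98% of all genes were called lower, Txnip, Sesn1, Pik3ip1 and Foxo1 were called, Foxo1 at −0.35 (FDR = 0.0431) and −0.38 (FDR = 0.0239).

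Pik3ip1 had 87.5, 81.4, 87.0, 68.5 and 58.5 FPM in the controls of the EGF/U46619 batch and 80.9, 44.7, 36.5, 46.0 and 48.0 FPM with EGF+U46619. Set 1 was the highest in both groups and made them overlap. The log2-fold change was −0.63 (SE 0.19, FDR = 0.0339) with EGF+U46619 and −0.59 (SE 0.19, FDR = 0.0666) with U46619. The call was lost without set 2, 3, 4 or 5 of the EGF/U46619 batch or set 4 of the EGF/AngII batch, with values between −0.85 and −0.51, and without the control library of that set 4 alone (−0.52, FDR = 0.0635). Within the EGF/U46619 batch it was −0.61 (FDR = 0.000902) and −0.58 (FDR = 0.00194).

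Foxo1 and Irs2 did not pass against all controls but passed within the batch. Foxo1 control levels differed between batches, with 24.6 ± 12.2 FPM (SD, n = 5) in the EGF/U46619 batch and 47.0 ± 16.5 FPM (SD, n = 5) in the EGF/AngII batch. Against all controls its log2-fold change was −0.79 with U46619 (FDR = 0.138) and −0.81 with EGF+U46619 (FDR = 0.108), and within the batch −0.39 (FDR = 0.0144) and −0.43 (FDR = 0.00709), lower in 5 of 5 culture sets. Over both batches with the culture set as block Foxo1 passed with EGF+U46619 (−0.48, FDR = 0.0404) and not with U46619 (−0.44, FDR = 0.0753). In that fit 6.73% and 4.48% of all genes were called lower. In the fit with the mouse number as term, Foxo1 passed with EGF+U46619 when set 1 of the EGF/U46619 batch was left out (−1.18). The share of all genes called was not counted there. Without the control library of set 4 of the EGF/AngII batch it was −0.56 (FDR = 0.267) and −0.58 (FDR = 0.205). Set 1 stood apart, with 46.0 FPM in control, 40.9 FPM with U46619 and 45.8 FPM with EGF+U46619, while the other sets had 10.9 to 23.2 FPM in these groups. Irs2 was higher within the batch, by 0.49 with U46619 (FDR = 0.023) and 0.44 with EGF+U46619 (FDR = 0.0308), in 4 of 5 culture sets, with set 2 the exception (16.5 FPM in control, 15 and 13.9 FPM treated). Against all controls it was 0.68 (FDR = 0.0966) and 0.64 (FDR = 0.0941), and without that control library 0.62 (FDR = 0.15) and 0.59 (FDR = 0.144). Within the batch, 5 of the 10 genes were thus called with U46619 and 5 with EGF+U46619, 4 lower and 1 higher in each. In the same fit 9.82% and 12% of 14634 genes were called lower and 11.4% and 13.7% higher, far more than against all controls. Foxo3, Irs1, Ccng2, Bcl6 and Klhl24 were not called either way, with within-batch estimates for U46619 between −0.09 for Foxo3 and 0.14 for Irs1.

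**Figure D4:**
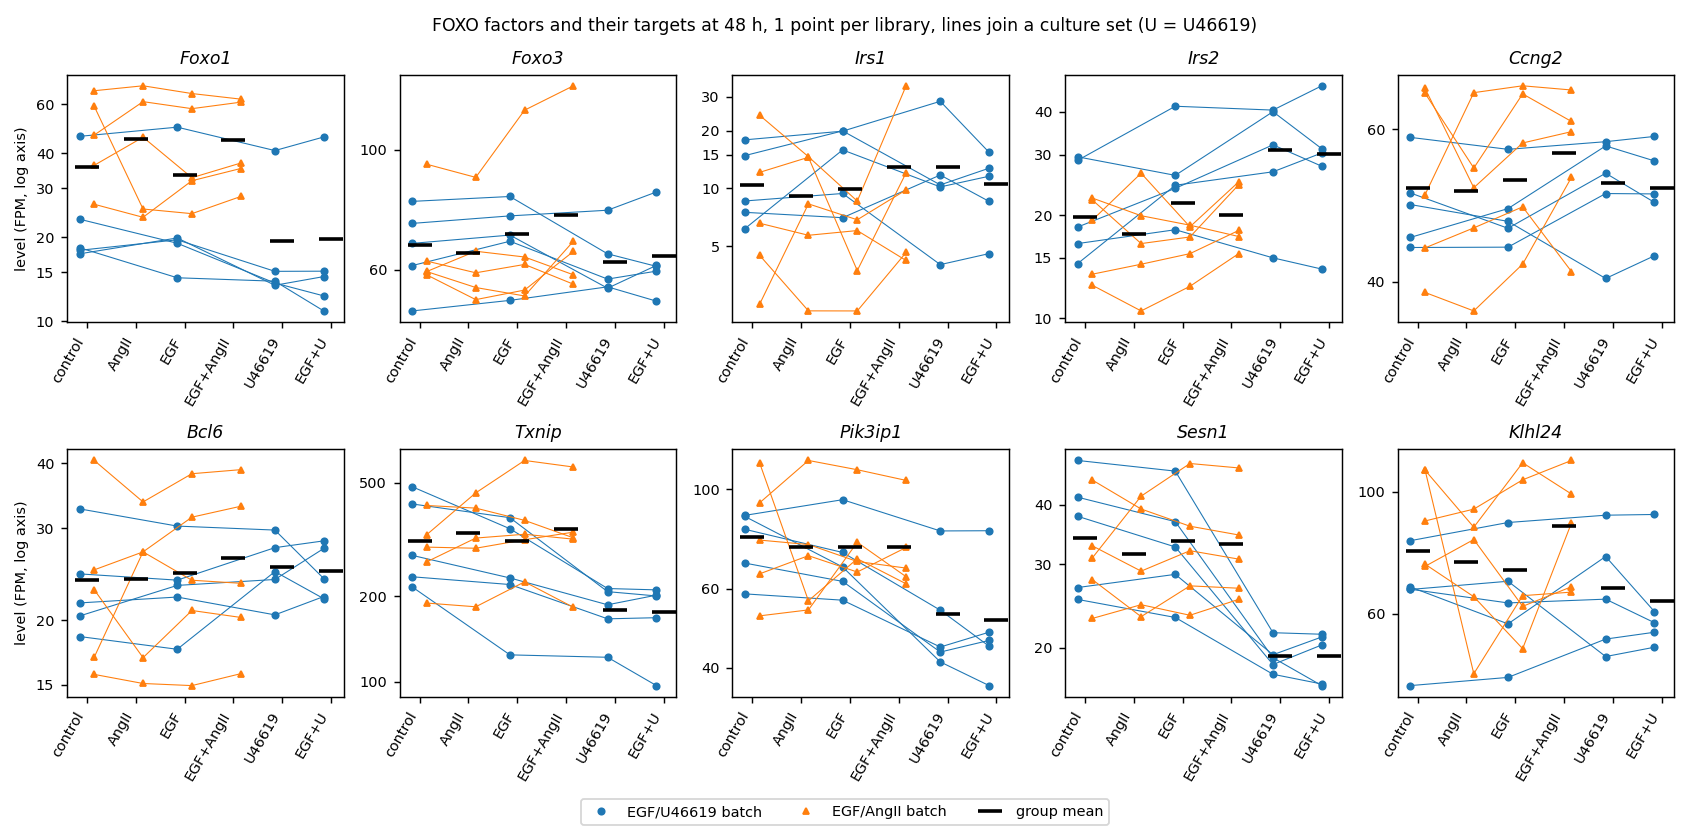
Level in FPM (y axis, log scale) of the 10 genes in the 6 groups after 48 h. Each point is 1 culture (n = 5 or 10 a group), lines join the cultures of 1 set, blue circles are the EGF/U46619 batch, orange triangles the EGF/AngII batch, and black bars are arithmetic group means over both batches where both hold the group; Sesn1 with U46619 (17.6 to 21.5 FPM) lies below the controls (23.1 to 49.6 FPM), and the high Foxo1 culture with U46619 (40.9 FPM) is set 1.

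Without U46619 no member was called after 48 h. EGF gave 0 calls among the 10 genes and among all genes (0%) with both tools required, 0 members and 141 genes at an unadjusted p under 0.05, and 1 gene by DESeq2 alone. AngII likewise gave 0 members and 0 genes (0%), with 255 genes at that unadjusted limit, and EGF+AngII 0 members and 0 genes (0%), with 300. EGF+U46619 against U46619 and the interaction each gave 0 members and 0 genes (0%) in edgeR, 2 genes each in DESeq2 alone, and 61 and 44 genes at an unadjusted p under 0.05, again with 0 members. Without the control library of set 4 of the EGF/AngII batch, EGF, AngII and EGF+AngII again gave 0 members. Txnip showed opposite estimates for EGF in the batches, −0.36 (FDR = 0.294) in the EGF/U46619 batch and 0.25 (FDR = 0.519) in the EGF/AngII batch, and the difference was not tested.

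Other genes of the pathway moved in both directions. Of 24 listed genes of the PI3K, AKT and FOXO arm 21 were tested in EGF+U46619 against control after 24 h, where 15.7% of all genes were called lower and 16.2% higher. In this list 4 fell and 5 rose. The largest falls were those of the PI3K regulatory subunits Pik3r1 (−1.01, FDR = 0.00326) and Pik3r2 (−0.79, FDR = 0.00326), and the largest rises those of Sgk1, a kinase related to AKT that also phosphorylates FOXO proteins (2.14, FDR = 1.53e-06), and Skp2, a subunit of a ubiquitin ligase that acts on Foxo1 and p27 (1.31, FDR = 0.000477). The list's median was 0.00. Of 32 further genes known to be induced by FOXO, 26 were tested, 10 fell, 1 rose and 15 were not called, with a median of −0.28. Selenop, which encodes a secreted selenium carrier (−2.55, FDR = 2.41e-06), and Bcl2l11, encoding the pro-apoptotic BIM (−1.15, FDR = 0.00329), fell most, and Bnip3, a mitophagy receptor that hypoxia also induces, rose (0.79, FDR = 0.000983). With U46619 alone 10 of these 26 fell and 2 rose, where 13.8% of all genes were called lower and 12.8% higher. After 48 h with EGF+U46619 1 of 25 fell and 1 rose, near the shares of all genes called lower (2.77%) and higher (3.53%).

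Genes that share other regulators with the members were counted in the same comparison. Of 7 alpha-arrestins and partners of the glucose-sensing factor MondoA, which drives Txnip, 3 fell and 0 rose, with Arrdc2 at −1.03 (FDR = 3e-05) and Arrdc4 at −0.60 (FDR = 0.00359). Of 10 genes induced by p53, which also drives Sesn1, 2 fell and 2 rose, with Trp53inp1 at −1.18 (FDR = 0.000601), Bbc3, which is also on the list of FOXO-induced genes, at −0.71 (FDR = 0.0091), Mdm2 at 0.78 (FDR = 8.32e-05) and Aen at 0.35 (FDR = 0.00438). All 15 proliferation markers tested rose, led by Bub1, a spindle checkpoint kinase (2.40, FDR = 0.00418), and Mki67 (2.20, FDR = 0.00648). With U46619 alone 10 of the 15 were called higher (median 1.30), where 12.8% of all genes were. With EGF alone it was 0 of the 15 (median 1.39). In the study, BrdU incorporation after 24 h rose with EGF, fell with U46619 and did not change significantly with EGF+U46619. The RNA of these markers is not a measure of DNA synthesis. After 48 h, with EGF+U46619, 0 of the 15 were called in both tools. The medians of the 3 lists with EGF+U46619 after 24 h were −0.50, −0.13 and 1.74.

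Markers of other cells moved too. With EGF+U46619 after 24 h all 5 fibroblast markers fell, led by the matrix proteoglycans Lum (−2.70, FDR = 0.00145) and Dcn (−1.91, FDR = 0.00768). Their summed level had a median of 686 FPM in control (376 to 3053) and 287 FPM with EGF+U46619 (163.7 to 970). Of the leukocyte markers 2 were tested and Lyz2, lysozyme, fell (−1.55, FDR = 7.6e-06), with a summed level of all 5 of 16.7 to 110 FPM in control and 9.60 to 39.2 FPM. Of 4 endothelial markers tested 0 were called by both tools, and their sum was 4.85 to 1162 FPM in control and 1.70 to 1290 FPM. Of 6 smooth muscle markers 1 rose, Acta2, smooth muscle actin (1.62, FDR = 0.00127), and the sum of the list was 1256 to 5380 FPM in control and 1719 to 13050 FPM with EGF+U46619. Of these lists, 2 of 8 smooth muscle, 1 of 5 endothelial and 1 of 5 leukocyte markers were at 0 in all libraries, which need not mean that their RNA was absent. With U46619 alone after 24 h 4 of the 5 fibroblast markers fell, and their summed level had a median of 292 FPM and a highest value of 1863 FPM. After 48 h 1 of the 5 was called lower with U46619 and with EGF+U46619, Pi16, named after its values were seen (−1.58 with U46619, FDR = 0.0176, and −1.77 with EGF+U46619, FDR = 0.00555). In the EGF/U46619 batch the fibroblast sum had a median of 714 FPM in control (254 to 2384), 239 FPM with U46619 (175.3 to 1613) and 254 FPM with EGF+U46619 (213.5 to 1383). In the fit over both batches, the median estimates with EGF+U46619 after 48 h were −1.36 for the fibroblast and −2.14 for the leukocyte markers. They were −1.37 for the endothelial and −0.50 for the smooth muscle markers. Of these, 0 of 4 leukocyte, 0 of 4 endothelial and 0 of 6 smooth muscle markers were called. Such estimates set cultures of 1 batch against controls of both. The endothelial sum had a control median of 89.0 FPM in the EGF/U46619 batch and 737 FPM in the EGF/AngII batch, and 64.1 FPM with EGF+U46619. For the leukocyte sum these medians were 80.5, 121 and 30.3 FPM. In bulk RNA, fewer cells of a type and less RNA per cell cannot be told apart, and the part of these shifts in the values of the 10 genes was not tested.

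The members' patterns over the 42 libraries of 24 h, centred within mouse on log2(FPM + 0.5), were alike to different degrees. These correlations are descriptions over libraries that share mice and treatments. Pearson's r was 0.941 for Txnip and Pik3ip1, 0.913 for Sesn1 and Klhl24, 0.906 for Pik3ip1 and Sesn1, and 0.871 for Foxo1 and Foxo3. Irs2 stood apart, with r between −0.12 (Txnip) and 0.55 with the other members. Among all other genes with a mean of at least 5 FPM, the most alike to Sesn1 was Matn2 (r = 0.9749), to Txnip Acad12 (0.972), to Pik3ip1 Pink1 (0.971) and to Klhl24 Crebrf (0.969). For Irs1 it was Exoc4 (0.927), for Foxo1 Fbxl7 (0.922), for Ccng2 Bnip3l (0.922), for Foxo3 Sulf2 (0.912), for Bcl6 Flcn (0.909) and for Irs2 Ep300 (0.864). With a pseudocount of 2 the first place passed to Esr1 for Foxo1 (0.936), Sptbn1 for Irs1 (0.919) and Podxl2 for Txnip (0.971), and it stayed the same for the other 7.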

How the data were processed

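Polyadenylated RNA of 82 cultures was sequenced, 42 of the 24 h and 40 of the 48 h incubation. Per the labels and the methods, the authors used HISAT2 2.1.0 to align reads to mm10 and featureCounts to count them over exons of Ensembl genes, multi-mapping reads included. The deposited values are whole-number counts per gene, neither normalised nor filtered. Every column of the count tables matched 1 sample. The 10 genes, the gene lists and the tests were chosen with earlier results of these data known.

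Counts were analysed in R 4.3.3 with edgeR 4.0.16 (quasi-likelihood test, TMM, filterByExpr) and DESeq2 1.42.0 (Wald test). Each time point was fitted once over all its groups, with treatment and the mouse number of the labels as terms, as in the study's methods. Genes that passed the filter numbered 14653 at 24 h and 15796 at 48 h, and a called gene had to be among the 14528 that passed at both. Printed log2-fold changes, SE, 95% intervals and FDR are edgeR's. DESeq2's FDR is missing for some genes after its independent filtering, and these were not called. FPM were counts per 1000000 of the TMM library size, so values of a level are FPM and values of a difference are log2. Levels between genes were divided by the exon length of GENCODE on GRCm38, the build that mm10 names, from which gene positions also come. The scripts were tested on simulated data.

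Deviations from the group means were compared within a mouse or culture set. After 24 h 126 of 126 pairs correlated over 0.1 (lowest 0.395), and after 48 h 57 of 60 did (lowest −0.41), with all exceptions in the control library of set 4 of the EGF/AngII batch. Pairs that share a mouse number but not a culture set after 48 h did so in 82 of 176. The labels state the mouse of each culture. No libraries agreed within sampling noise (lowest chi-square per degree of freedom 4.25).

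Beyond the 10 genes, each list gives by name the called genes with the 2 largest rises and the 2 largest falls in EGF+U46619 after 24 h, and likeness gives the gene with the highest correlation. Alternatives were each tool alone, DESeq2 size factors, a minimum of 10 counts in every library, no filter, no FPM minimum, no mouse term, only the groups compared, leaving out each mouse or culture set and, after 48 h, the culture set as block and each batch alone. Leaving out 2 single libraries was added after seeing the data. Promoters were matched by symbol to RefSeq.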

Additional observations from a re-analysis of the deposited data

Results flagged for a closer look

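Of 130 sets of cultures (10 genes in each group, n = 5 to 10), 5 had a culture set apart from the others by Dixon's criterion, which chance does in about 1 of 20 sets. After 48 h, set 1 of the EGF/U46619 batch was high for Foxo1 with U46619 (45.8 FPM with EGF+U46619 and 40.9 FPM with U46619, other cultures 10.9 to 15.1 and 13.5 to 15.1 FPM). The same set was high for Klhl24 with EGF+U46619 (91.0 FPM, others 52.2 to 60.5). Foxo3 was high with EGF+AngII after 48 h in set 6 of the EGF/AngII batch (131 FPM, others 56.4 to 67.7). After 24 h, Foxo3 with EGF+AngII+U46619 was highest in mouse 5 (59.3 FPM, others 38.8 to 44.6).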

How the results depend on the processing

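No result changed direction and passed the test. Of the alternatives for single genes and comparisons, 982 kept their side of the threshold, 41 newly passed and 90 no longer passed, and of those for the number of members called 304 stayed within 1.5 times and 51 did not. The cause was not tested in any case, except that fits over the groups compared hold fewer samples. The share of all genes called was not counted without the mouse term, over only the groups compared, without the filter or with samples left out. The counts of members in those fits are therefore not set against all genes.

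Without a replicate block (no mouse term), the number of members called fell after 24 h to 4 with U46619, 4 with EGF+U46619, 5 with EGF+AngII+U46619, 0 with EGF+AngII, 1 in EGF+U46619 against EGF and 0 in U46619 against EGF, and after 48 h to 1 in each of the 4 comparisons with calls. With only the groups compared it was 0 with EGF+AngII, 5 with EGF+AngII+U46619, 4 in EGF+U46619 against EGF and 2 in U46619 against EGF after 24 h, and 0 in both comparisons against EGF after 48 h. The culture set as replicate block after 48 h gave 3 with U46619 and 4 with EGF+U46619, and the EGF/U46619 batch alone 5, 5, 4 against EGF and 4 in U46619 against EGF. DESeq2 alone and no filter beyond 1 count each called 1 member with EGF after 24 h. Leaving out the EGF+AngII+U46619 library of mouse 3 gave 4 in EGF+U46619 against EGF and 2 in U46619 against EGF.

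Leaving out 1 mouse after 24 h gave 6 to 7 members with U46619, 5 to 9 with EGF+U46619, 7 to 9 with EGF+AngII+U46619, 0 to 3 with EGF+AngII, 0 to 2 with EGF, 1 to 4 in EGF+U46619 against EGF and 1 to 3 in U46619 against EGF. Leaving out 1 culture set after 48 h gave 1 to 2 with U46619, 1 to 4 with EGF+U46619, 1 to 3 in EGF+U46619 against EGF and 1 to 2 in U46619 against EGF. In the other comparisons it gave 0 to 0. Depth limits Irs1 most, with 11 counts in its lowest library.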
